A study of Mus musculus with 21 samples.

Results

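The meiosis and piRNA germline genes are 41 genes of the 33861 in the count table, chosen by name: genes of the meiotic chromosome axis and synaptonemal complex, of meiotic cohesin and recombination, of the piRNA pathway, and regulators or markers of germ cells. All 41 were found. The choice was prompted by the levels of Sycp3 and Rnf17 in AFX cells and of Sycp1 in epiblasts, so comparisons that use those values are descriptions: no p is given for them, and nothing is read from how many genes passed a threshold there. RNA was sequenced from 12 samples of cultured mouse pluripotent cells, each of 1000 cells, and from 9 single epiblasts, the embryonic layer that gives rise to the body. FS is the label's short name for formative stem cells. They grew in A3XR medium as 2 separate lines, sampled at passages 10, 11 and 18 for the first (line 1) and 12, 13 and 16 for the second (line 2). AF and AFX cells are labelled EpiSCs (epiblast stem cells), each named after its medium and described as E14, a widely used mouse embryonic stem cell line. Both were sampled 3 times, at passages 14, 15 and 16. The epiblasts were from embryonic days 5.0 (embryos 1, 2 and 4), 5.5 and 6.0 (embryos 1, 2 and 3 of each), and the oldest stage is called 6.5 in another label field. The labels give no strain, sex, genotype or other treatment. Passages of 1 line are repeated samples of the same cells, so the spread between them is not that between separate derivations, and medium and line differ together between FS and the other cultures.

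In the germ line these genes act when chromosomes pair and recombine in meiosis, and when piRNAs, small RNAs bound by PIWI proteins, direct the silencing of transposons. In most other cells they are silent: many have CpG-rich promoters that become methylated by DNMT3A and DNMT3B around implantation, and repressors such as the E2F6, MGA and PCGF6 complex bind some of them through short E-box (CACGTG) and E2F (TCCCGC) motifs. DNA methylation was not measured in these samples. Promoter windows of 250 bases before to 50 bases after the start were taken from RefSeq (GRCm38.p6), which held 36 of the 41 genes. No window was used for Spo11, Tex15, Rnf17, Tdrd6 and Piwil2. Those of 6 genes are printed below for the 250 bases before the start: Hormad1, Smc1b and Tex19.1, which had the largest fitted falls of the 41 genes between the first and the last stage, Sycp3 and Dmc1, which were high in AFX, and Sycp1. They run 5′ to 3′ on the strand of the gene, with each CACGTG and each TCCCGC (or GCGGGA on the other strand) in capitals.
Hormad1 (chr3:95559427-95559676, plus strand): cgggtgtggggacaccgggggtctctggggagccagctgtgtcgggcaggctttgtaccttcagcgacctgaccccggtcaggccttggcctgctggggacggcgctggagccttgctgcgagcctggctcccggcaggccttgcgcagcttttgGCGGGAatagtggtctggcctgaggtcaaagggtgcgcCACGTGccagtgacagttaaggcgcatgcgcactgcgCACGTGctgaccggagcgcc
Smc1b (chr15:85131958-85132207, minus strand): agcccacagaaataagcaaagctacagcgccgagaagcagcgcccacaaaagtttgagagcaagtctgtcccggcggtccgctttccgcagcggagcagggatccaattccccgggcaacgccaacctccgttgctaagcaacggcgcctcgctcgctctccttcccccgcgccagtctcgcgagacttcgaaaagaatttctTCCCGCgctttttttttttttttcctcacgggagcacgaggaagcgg
Tex19.1 (chr11:121145893-121146142, plus strand): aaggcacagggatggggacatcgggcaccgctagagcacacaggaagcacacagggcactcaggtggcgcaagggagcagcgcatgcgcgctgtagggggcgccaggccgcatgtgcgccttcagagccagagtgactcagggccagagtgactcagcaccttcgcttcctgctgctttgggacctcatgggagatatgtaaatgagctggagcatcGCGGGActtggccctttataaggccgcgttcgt
Sycp3 (chr10:88459337-88459586, plus strand): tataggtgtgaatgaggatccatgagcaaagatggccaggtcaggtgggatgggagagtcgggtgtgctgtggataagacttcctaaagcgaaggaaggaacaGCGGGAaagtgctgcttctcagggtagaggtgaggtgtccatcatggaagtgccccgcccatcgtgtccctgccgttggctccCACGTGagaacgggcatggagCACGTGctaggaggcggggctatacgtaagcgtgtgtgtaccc
Dmc1 (chr15:79605110-79605359, minus strand): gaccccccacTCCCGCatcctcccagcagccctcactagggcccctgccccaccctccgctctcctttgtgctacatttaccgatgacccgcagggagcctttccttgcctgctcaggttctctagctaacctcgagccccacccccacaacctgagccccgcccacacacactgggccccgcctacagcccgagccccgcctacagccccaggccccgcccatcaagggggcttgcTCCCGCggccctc
Sycp1 (chr3:102936101-102936350, minus strand): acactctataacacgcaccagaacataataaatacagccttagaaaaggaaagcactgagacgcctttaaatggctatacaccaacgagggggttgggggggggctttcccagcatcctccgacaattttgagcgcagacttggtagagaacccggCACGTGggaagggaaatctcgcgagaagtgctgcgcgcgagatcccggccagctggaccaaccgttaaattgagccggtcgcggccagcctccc

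These windows lie upstream of the annotated gene in GENCODE M21, apart from 18 bases of the Sycp3 window and 7 of the Smc1b window that fall inside the gene. Hormad1 held CACGTG 57 and 20 bases before the start, and TCCCGC 95 bases before it. Sycp3 held CACGTG at 64 and 43 bases and TCCCGC at 147 bases, and Sycp1 held CACGTG at 94 bases, with its TCCCGC after the start and so outside the letters printed. Smc1b, Tex19.1 and Dmc1 held no CACGTG in this stretch, but TCCCGC at 47, at 33, and at 240 and 13 bases before the start. Smc1b held 25 CpGs, Hormad1 19, Sycp1 17, Tex19.1 15, and Sycp3 and Dmc1 12 each. Over the full windows of the 36 genes the median observed/expected CpG ratio was 0.693, against 0.390 over all 27025 genes of the promoter table and 0.749 over the 10510 of them that were tested in cultured cells. Some genes, Hormad1 among them, had several windows, and for Hormad1 the first is printed. For such genes the CpG ratio is a mean over windows, and a motif in any window counts. CACGTG on either strand was in 14 of the 36 genes (38.9%), against 8.09% of all genes of the promoter table and 11.6% of tested genes. TCCCGC was in 16 (44.4%), against 22.0% and 40.7%. Both motifs were in 8 genes (22.2%), against 2.65% and 5.29%: Ddx4, Hormad1, Mael, Slc25a31, Stag3, Syce2, Sycp1 and Sycp3. The share with CACGTG was above both backgrounds, while the CpG ratio and the share with TCCCGC were close to those of genes tested in culture. A match is a description of letters, not a bound site.

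**Figure D1:**
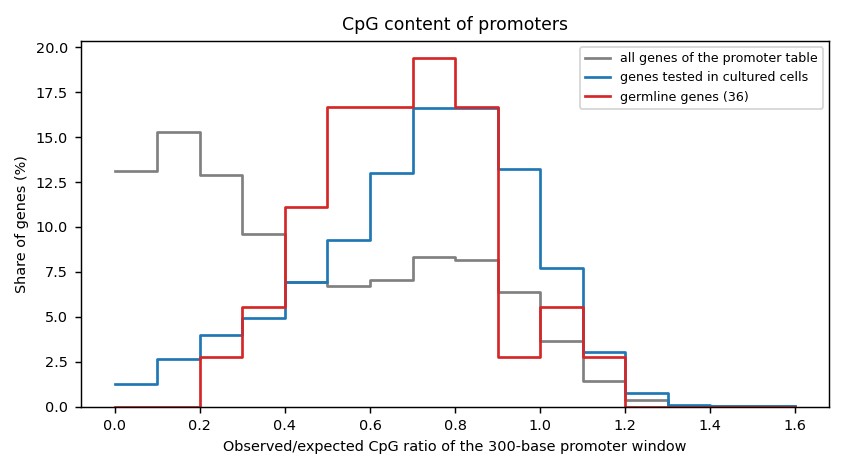
Share of genes (%, vertical axis) by observed/expected CpG ratio of the promoter window (horizontal axis, bins of 0.1) for the 36 germline genes, all 27025 genes of the promoter table and the 10510 genes tested in cultured cells. A gene with several windows is shown by their mean. The germline genes, with a median of 0.693, lie with the tested genes (0.749) and not at the low ratios where many of all genes lie (0.390).

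Levels are given as CPM, the count scaled to the size of its library (edgeR, TMM), so a value is a level within a sample. The libraries held 5827093 to 15916800 counts, and 3 counts were worth 0.171 to 0.589 CPM, which is the least that can be read from a single sample (counting error only). Ribosomal RNA loci took 20% to 31.7% of counts. Epiblast markers (Pou5f1, Sox2, Nanog, Otx2, Utf1, Fgf5) summed to 982.6 to 1276 CPM in epiblasts and 634.7 to 854.4 CPM in cultured samples. Markers of visceral endoderm, the layer around the epiblast, summed to 251.0 to 799.6 CPM at E5.0, 27.2 to 61.6 at E5.5 and 5.88 to 8.30 at E6.0. Fibroblast markers summed to 225.7 to 271.3 CPM in AF, 34.1 to 59.1 in AFX and 19.8 to 51.9 in FS. Fewer cells of a type and less RNA per cell cannot be told apart in such samples.

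The summed level of the 41 genes was highest in E5.0 epiblasts, and every cultured sample lay below every E5.0 and E5.5 epiblast. It was 670.0, 696.8 and 809.4 CPM in E5.0 embryos 1, 2 and 4, 445.5, 417.2 and 475.1 CPM in E5.5 embryos 1 to 3, and 183.9, 191.3 and 217.4 CPM in E6.0 embryos 1 to 3. The stages did not overlap. AFX passage 14 lay above 2 of the E6.0 embryos. In culture the sum was 105.6, 73.7 and 63.6 CPM in FS line 1, 132.1, 137.2 and 131.9 in FS line 2, 69.6, 99.98 and 61.3 in AF, and 194.4, 142.2 and 120.0 in AFX. Each group of samples is in order of passage. At E5.0, Stag3 (142.6 CPM) and Tex19.1 (134.3 CPM) were the largest parts of the mean sum of 725.4 CPM. At E6.0 they were at 21.9 and 6.16 CPM, of a mean sum of 197.5 CPM, so the sum leans on these genes. Most of the genes were still detected at E6.0: 30.7 ± 1.53 of the genes (SD, n = 3) were at 1 CPM or more at E5.0, 32.3 ± 0.577 at E5.5 and 27.7 ± 0.577 at E6.0, against 13.7 ± 2.58 in FS (n = 6), 11.7 ± 3.21 in AF (n = 3) and 14.7 ± 2.08 in AFX (n = 3). By group mean, 19 of the 41 genes were highest at E5.0, 12 at E5.5, none at E6.0, 5 in AFX, 3 in AF and 2 in FS. Msh5 and Tdrd7 were highest in FS, Mei4, Tdrd5 and Tdrd6 in AF, and Sycp3, Dmc1, Tex15, Mei1 and Spo11 in AFX. Per kilobase of exon, the highest mean levels at E5.0 were those of Tex19.1 (71.7 CPM per kb), Syce2 (32.2), Stag3 (24.9) and Hormad1 (20.6), and the highest in a culture was that of Sycp3 in AFX (16.4). Only Piwil4, Tdrd6 and Spo11 had a mean under 1 CPM in all 6 groups.

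**Figure D2:**
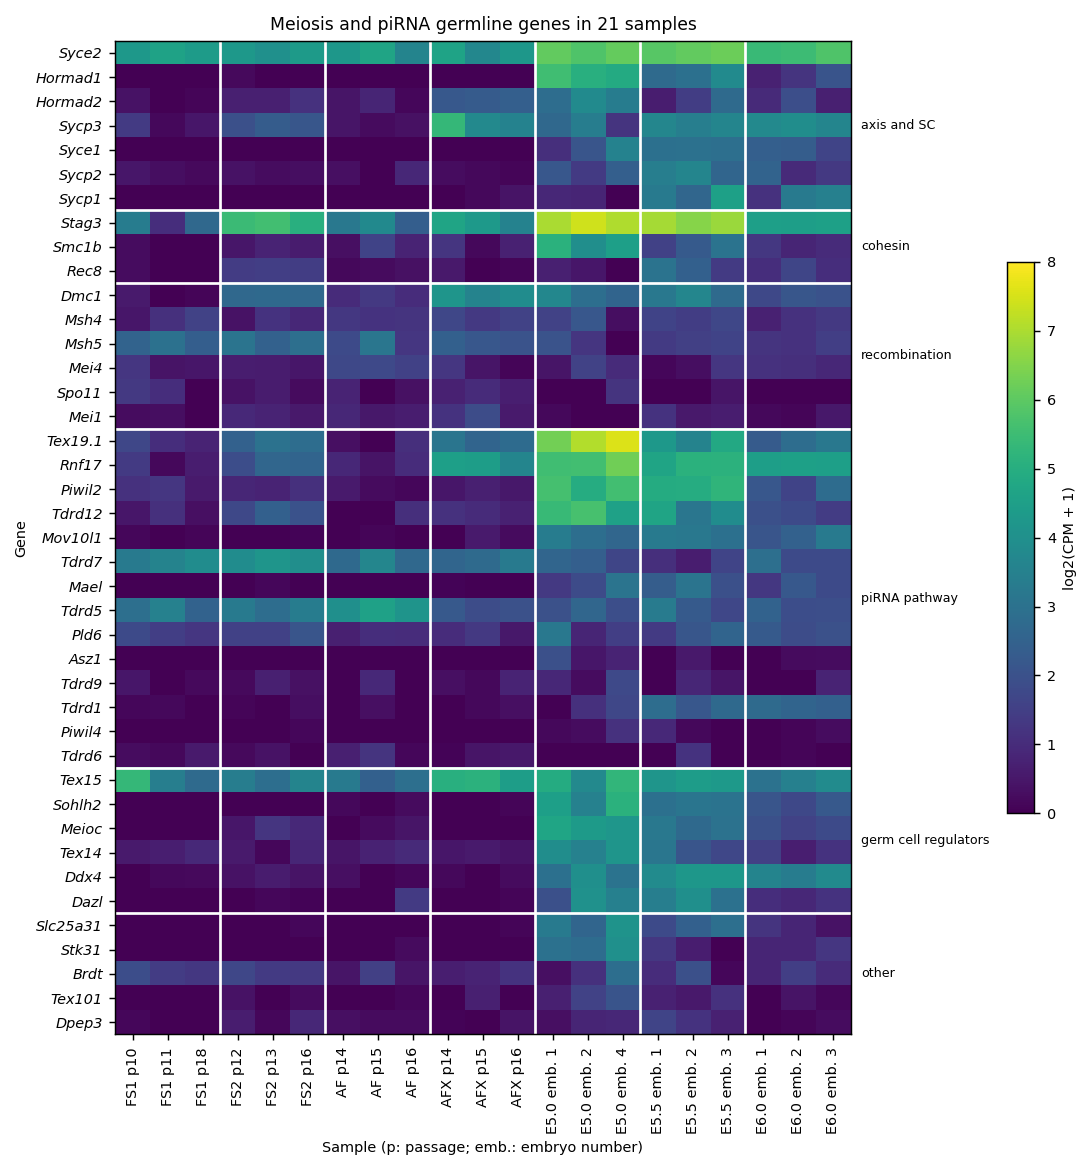
Level of each of the 41 genes (rows, grouped by role and ordered within a role by their E5.0 mean; SC, synaptonemal complex) in each of the 21 samples (columns), as log2(CPM + 1) on the colour scale. Most rows are bright in E5.0 and E5.5 epiblasts and dark in culture, while Syce2, Stag3, Tex15 and Tdrd5 are visible in every group.

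The stages of the epiblast were compared to see how these genes change over the days around implantation. Between E5.0 and E6.0, 17 of the 40 genes other than Sycp1 fell and none rose (edgeR quasi-likelihood test, adjusted p under 0.05). Of the 40, 33 passed the filter on low counts and 16 of these did not pass the test, and 7 were not tested. Tex101 and Stk31 passed the filter only through E5.0, where they were high, so they could be called in no other direction, and without them 15 were called. Of all 14228 genes tested, 11.6% were called lower and 10.2% higher (21.8% in all). The median log2 change was -1.27 over the 34 genes tested with Sycp1 and -0.02 over all genes, given as a description, since genes can pass the filter through the stage where they are high. Those that fell were Hormad1 and Hormad2 of the axis, Smc1b and Stag3 of cohesin, Dmc1 of recombination, Tex19.1, Tdrd12, Piwil2 and Rnf17 of the piRNA and transposon genes, Meioc, Sohlh2, Dazl, Tex14 and Tex15 of the germ cell regulators, and Slc25a31, Stk31 and Tex101. The number called was 12 to 20 under every alternative that was run, and 13 to 17 with any 1 embryo left out. Visceral endoderm markers moved with the stages: 8 of 10 were tested and 7 fell, among them Cubn from 375.9 to 1.31 CPM and Hnf4a from 12.04 to 0.351 CPM (means). Of these 7, Ttr passed the filter only through E5.0. Naive pluripotency markers moved too: 7 of 8 were tested and 3, Zfp42, Klf5 and Tfcp2l1, fell, with sums over the list of 49.3 to 84.4 CPM at E5.0, 20.2 to 33.8 at E5.5 and 23.9 to 27.9 at E6.0. The part of these markers in the result was not tested. In E5.0 embryos 1, 2 and 4 the visceral endoderm markers summed to 632.1, 799.6 and 251.0 CPM, beside sums of the germline genes of 670.0, 696.8 and 809.4 CPM. Extraembryonic ectoderm markers summed to 2.16 to 24.5 CPM at E5.0 and 1.92 to 3.72 CPM at E6.0, and of the 2 tested neither passed. Primordial germ cell markers summed to 16.2 to 32.8 CPM at E5.0, 29.6 to 47.0 at E5.5 and 30.4 to 40.4 at E6.0, with Prdm14 at 0 in all 9 epiblasts. Of the 5 tested, Kit rose from 7.10 to 24.7 CPM, while Prdm1, Tfap2c, Dppa3 and Dnd1 had negative changes that did not pass (log2 -0.71, -1.22, -1.31 and -0.98), so the sum follows Kit.

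Among genes of the chromosome axis, Hormad1 and Hormad2, HORMA-domain proteins that mark unpaired axes, fell, while Sycp2, Sycp3, Syce1 and Syce2 of the synaptonemal complex passed no test. Hormad1 was at 46.2, 32.2 and 28.5 CPM in E5.0 embryos 1, 2 and 4, at 5.87, 6.76 and 13.1 in E5.5 embryos 1 to 3, and at 0.656, 1.30 and 3.19 in E6.0 embryos 1 to 3. No value of one stage overlapped another, and the log2 change from E5.0 was -2.06 ± 0.42 (SE, adjusted p 0.0131) at E5.5 and -4.37 ± 0.49 (adjusted p 4.92e-05) at E6.0, and -2.30 ± 0.47 (adjusted p 0.0146) from E5.5 to E6.0. The full change was -5.12 without E6.0 embryo 3 and -5.26 in a fit of the pair of stages alone, and the second step was -3.06 without E6.0 embryo 3. The first step was not called without E5.5 embryo 1 (-1.85) or 2 (-1.91), nor the second without E5.5 embryo 3 (-1.85) or E6.0 embryo 1 (-1.94) or 2 (-2.10). Hormad2 was at 6.21, 13.3 and 9.23 CPM at E5.0, 0.565, 1.72 and 5.78 at E5.5 and 0.919, 2.77 and 0.639 at E6.0, with all E5.0 embryos above the others. It fell by 2.70 ± 0.75 on the log2 scale from E5.0 to E6.0 (adjusted p 0.0202). This call was lost in a fit of the pair of stages alone (-2.35) and without E5.0 embryo 2 (-2.38) or E6.0 embryo 1 (-2.45) or 3 (-2.33), and the change was -3.60 without E6.0 embryo 2.

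Sycp1, Sycp2, Sycp3, Syce1 and Syce2 had counts in every E6.0 embryo. Syce2, of its central element, was at 67.2, 54.7 and 68.4 CPM at E5.0, 59.6, 66.7 and 73.1 at E5.5 and 41.5, 44.2 and 55.1 at E6.0. The log2 change from E5.0 to E6.0 was -0.45 ± 0.15 and missed the threshold (adjusted p 0.0511). Sycp3, of the lateral element, was at 5.46, 9.42 and 1.32 CPM at E5.0 and at 12.7, 14.3 and 11.49 CPM at E6.0, above every E5.0 embryo, with a log2 change of 1.27 ± 0.48 (adjusted p 0.0756). Its partner Sycp2 was at 3.12 ± 1.41 CPM at E5.0 (SD, n = 3), 8.77 ± 3.27 at E5.5 and 2.43 ± 2.12 at E6.0. Syce1, also of the central element, was at 5.04 ± 5.00, 6.72 ± 0.137 and 3.54 ± 1.22 CPM. Neither passed a test between stages. Sycp1, the transverse filament that joins the axes and 1 of the genes that prompted the choice, was at 0.869, 0.785 and 0 CPM at E5.0, at 8.92, 5.27 and 22.4 at E5.5 and at 1.18, 8.82 and 10.1 at E6.0. All later embryos lay above those of E5.0, and those of E5.5 and E6.0 overlapped.

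Of the meiotic cohesin subunits, Stag3 and Smc1b fell from E5.0 to E6.0, and Rec8 was not called over that span. Stag3 was at 126.8, 170.7 and 130.4 CPM at E5.0, 121.4, 93.5 and 110.6 at E5.5 and 21.9, 21.4 and 22.3 at E6.0. The log2 change was -0.41 ± 0.14 in the first step (adjusted p 0.105), -2.31 ± 0.15 in the second (adjusted p 1.10e-06) and -2.72 ± 0.15 in all (SE, adjusted p 1.02e-07). Smc1b was at 33.8, 14.3 and 22.1 CPM at E5.0, 1.92, 3.78 and 7.27 at E5.5 and 1.44, 0.779 and 0.958 at E6.0. It fell by 2.44 ± 0.46 on the log2 scale in the first step (adjusted p 0.00754), by 2.05 ± 0.51 in the second (adjusted p 0.0371) and by 4.49 ± 0.52 in all (adjusted p 5.01e-05). Smc1b was thus called in both steps and Stag3 in the second. The Smc1b call was lost under 1 of 13 alternatives in the first step, and that alternative left out no embryo. In the second step it was lost under 6 of 13, of which 5 left out an embryo. The first step of Smc1b was -2.07 without E5.0 embryo 1, -3.04 without E5.5 embryo 3 and -3.08 in a fit of the pair of stages alone, and its second step was not called without E5.5 embryo 2 (-2.14) or 3 (-1.44) or any of the E6.0 embryos 1 to 3 (-2.31, -1.85 and -1.995). Rec8, the kleisin that is cut when meiotic chromosomes part, was at 0.621, 0.392 and 0 CPM at E5.0, 7.23, 4.47 and 1.58 at E5.5 and 1.05, 2.16 and 1.06 at E6.0. It was the only 1 of the 40 genes called higher between any pair of stages, at 3.67 ± 0.94 from E5.0 to E5.5 (adjusted p 0.0328), and it passed the filter only through E5.5, so it could be called in no other direction. That call was lost in a fit of the pair of stages alone (3.45) and without E5.0 embryo 4 (3.05) or E5.5 embryo 1 (3.12) or 2 (3.67), and the change was 4.67 without E5.0 embryo 1.

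Of the genes of recombination, Dmc1 had the highest mean level at each stage of the epiblast. Dmc1, the recombinase that carries out strand exchange in meiosis, was at 12.04, 6.48 and 5.04 CPM at E5.0, 8.25, 11.7 and 5.87 at E5.5 and 2.36, 3.37 and 3.09 at E6.0. It fell by 1.43 ± 0.42 on the log2 scale from E5.0 to E6.0 (adjusted p 0.0270). The call was lost in a fit of the pair of stages alone (-1.70), without E5.0 embryo 1 (-0.95) and without any of the E6.0 embryos 1 to 3 (-1.27, -1.52 and -1.44). Msh4 and Msh5, which together hold recombination intermediates, ranged from 0.240 to 3.53 CPM and from 0 to 3.10 CPM over the 9 epiblasts, and Mei4, needed for the breaks that start recombination, from 0.113 to 1.96 CPM. These 3 were tested and passed in no pair of stages. Spo11, which makes those breaks, and Mei1 did not pass the filter.

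The piRNA and transposon genes held both some of the largest falls and genes that passed no test. Tex19.1, which restrains retrotransposons in germ cells, was at 77.6, 135.4 and 189.8 CPM at E5.0, 18.3, 10.9998 and 27.3 at E5.5 and 3.94, 6.23 and 8.30 at E6.0. It fell by 2.84 ± 0.43 on the log2 scale in the first step (SE, adjusted p 0.00861) and by 4.45 ± 0.47 in all (adjusted p 0.000324). It has a near copy, Tex19.2, and the share of reads between them is uncertain. Tdrd12, a Tudor-domain helicase of secondary piRNA production, was at 40.97, 50.4 and 22.8 CPM at E5.0, 24.3, 7.91 and 13.8 at E5.5 and 2.89, 2.51 and 1.70 at E6.0, and fell by 4.02 ± 0.45 in all (adjusted p 5.54e-05) and by 2.70 ± 0.44 in the second step (adjusted p 0.00391). Piwil2, the PIWI protein that binds piRNAs in fetal germ cells, was at 29.0, 29.8 and 36.5 CPM at E5.5, against 49.3, 29.8 and 46.9 at E5.0, and was at 3.54, 2.08 and 6.07 at E6.0. Its change was -0.42 ± 0.29 in the first step (adjusted p 0.438) and -3.04 ± 0.33 in the second (adjusted p 0.000119). Rnf17, a Tudor-domain protein of germ granules, was at 45.6, 47.3 and 76.7 CPM at E5.0, 24.3, 33.2 and 34.2 at E5.5 and 21.5, 22.3 and 21.8 at E6.0. It fell by 1.39 ± 0.22 in all (adjusted p 0.000498). Its first step of -0.90 ± 0.21 (adjusted p 0.0234) was not called in a fit of the pair of stages alone (-0.70) or without E5.0 embryo 4 (-0.60) or E5.5 embryo 1 (-0.76) or 2 (-0.96). Mov10l1, the helicase that starts piRNA processing, was at 6.98 ± 2.004 CPM at E5.0 (SD, n = 3) and 5.496 ± 2.78 at E6.0, a log2 change of -0.36 ± 0.40 (adjusted p 0.575). Tdrd1, a partner of PIWI proteins, was at 1.15 ± 1.14, 5.16 ± 1.44 and 5.09 ± 0.656 CPM from E5.0 to E6.0, with all later embryos above those of E5.0 and a log2 change of 2.11 ± 0.75 (adjusted p 0.0604). Mael, Pld6, Tdrd5 and Tdrd7 were tested too and passed in no pair of stages, with stage means of 2.51 to 4.84, 3.13 to 3.59, 3.39 to 5.02 and 1.28 to 3.86 CPM. Asz1, Tdrd6, Tdrd9 and Piwil4 did not pass the filter, and none of their stage means was above 1.32 CPM.

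Of the 6 regulators of germ cells, 5 were called lower from E5.0 to E6.0, all but Ddx4, where 11.6% of all genes were. Meioc, needed to keep germ cells in meiotic prophase, was at 24.96, 19.6 and 17.3 CPM at E5.0, 8.13, 5.61 and 7.09 at E5.5 and 2.89, 1.99 and 2.45 at E6.0. It fell by 1.58 ± 0.30 in the first step (SE, adjusted p 0.00768), 1.52 ± 0.32 in the second (adjusted p 0.0141) and 3.10 ± 0.32 in all (adjusted p 2.07e-05) on the log2 scale. The first step was not called in a fit of the pair of stages alone (-1.70), nor the second without E5.5 embryo 1 (-1.38) or E6.0 embryo 2 (-1.38) or 3 (-1.52). Sohlh2, a transcription factor of early germ cell differentiation, was at 21.9, 10.4 and 33.7 CPM at E5.0, 6.78, 7.68 and 7.27 at E5.5 and 3.28, 2.34 and 3.72 at E6.0, a fall of 2.84 ± 0.40 (adjusted p 0.000221). Its first step of -1.62 ± 0.38 (adjusted p 0.0217) was not called in a fit of the pair of stages alone (-1.17), or without E5.0 embryo 4 (-1.17) or any of the E5.5 embryos 1 to 3 (-1.57, -1.65 and -1.61). Dazl, an RNA-binding protein of germ cells, was at 2.86, 15.5 and 10.1 CPM at E5.0, 9.83, 14.7 and 6.99 at E5.5 and 1.05, 0.865 and 1.28 at E6.0. Its E5.0 and E5.5 embryos overlapped, and it fell by 3.29 ± 0.57 from E5.5 to E6.0 (adjusted p 0.00479) and by 3.15 ± 0.58 from E5.0 (adjusted p 0.00155). The change from E5.0 was not called in a fit of the pair of stages alone (-3.23). Ddx4, the germ cell RNA helicase also called Vasa, was at 6.70, 14.7 and 7.32 CPM at E5.0, 13.6, 17.99 and 17.8 at E5.5 and 11.2, 9.26 and 13.3 at E6.0. Its E5.0 and E6.0 values overlapped, with a log2 change of 0.23 ± 0.33 (adjusted p 0.669). Tex14, of the bridges between germ cells, was at 13.9 ± 3.32 CPM at E5.0 and 1.24 ± 0.617 at E6.0 (SD, n = 3), and fell by 3.52 ± 0.55 (adjusted p 0.000464). Tex15, which acts in recombination and transposon silencing, was at 26.5 ± 12.7 and 10.2 ± 3.16 CPM with overlapping embryos, and fell by 1.39 ± 0.35 (adjusted p 0.0111). The Tex15 call was lost without E6.0 embryo 1 (-1.17) and in a fit of the pair of stages alone (-1.29).

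Of the other testis-expressed genes, Slc25a31, an ADP/ATP carrier of sperm, was at 8.57, 5.10 and 16.2 CPM at E5.0, 2.48, 4.47 and 6.62 at E5.5 and 1.31, 0.779 and 0.319 at E6.0. It fell by 3.66 ± 0.62 on the log2 scale in all (SE, adjusted p 0.000865), or by 2.73 in a fit of the pair of stages alone, and by 2.51 ± 0.61 in the second step (adjusted p 0.0320). The second step was called without E5.5 embryo 1 and not without E5.5 embryo 2 (-2.51) or 3 (-2.12) or any of the E6.0 embryos 1 to 3 (-2.98, -2.49 and -2.13). Stk31, a Tudor-domain kinase-like protein, was at 6.95, 6.08 and 15.1 CPM at E5.0, 1.47, 0.573 and 0 at E5.5 and 0.788, 0.779 and 1.38 at E6.0, and fell in the first step (-3.81 ± 0.83, adjusted p 0.0162). That call was lost in a fit of the pair of stages alone (-2.66) and without E5.0 embryo 4 (-3.27) or E5.5 embryo 2 (-3.71), and the change was -5.07 without E5.5 embryo 1 and -3.18 without E5.5 embryo 3. From E5.0 to E6.0 it fell by 3.25 ± 0.80 (adjusted p 0.0102), a call lost without E6.0 embryo 2 (-3.09). In both comparisons Stk31 passed the filter only through E5.0, where it was high, so it could be called in no other direction. Tex101, a surface protein of germ cells, had 42 counts over the E5.0 embryos and 5 over those of E6.0. It too passed the filter only through E5.0 and could be called in no other direction. Its fall of 3.47 ± 1.09 (adjusted p 0.0351) was not called without E5.0 embryo 2 (-3.46) or 4 (-2.83) or any of the E6.0 embryos 1 to 3 (-2.98, -4.76 and -3.26). Brdt, a bromodomain protein of spermatids, passed no test and ranged from 0.0932 to 6.48 CPM, and Dpep3 was not tested.

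**Figure D3:**
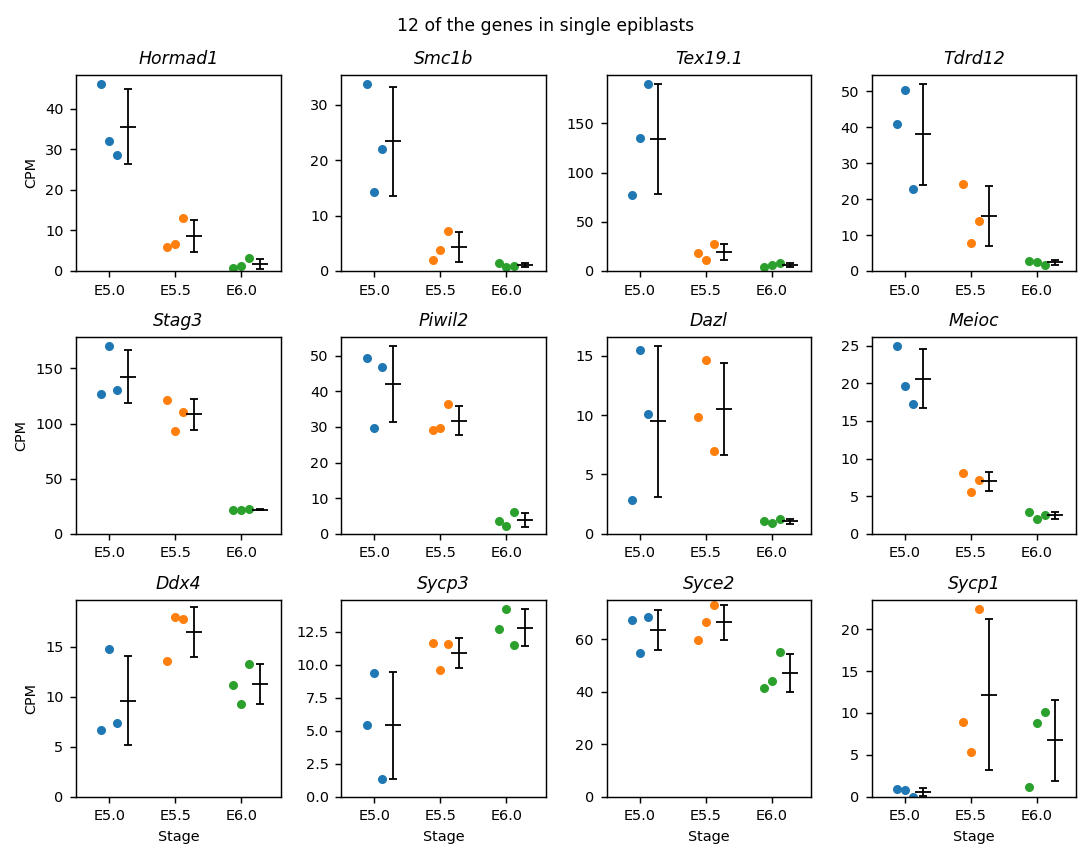
Level (CPM, vertical axes, each from 0) of 12 of the genes in each of 3 embryos at E5.0, E5.5 and E6.0 (points), with the mean and SD beside them. Hormad1, Smc1b and Tex19.1 are already lower at E5.5, Stag3, Piwil2 and Dazl are lower at E6.0, and the E6.0 embryos of Ddx4, Sycp3 and Syce2 lie between 9.26 and 55.1 CPM.

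The 3 comparisons of stages share embryos and are given side by side. In the first step 7 of the 40 genes were called lower and 1 higher, against 3.75% and 3.07% of all 14228 genes (6.82% in either direction), and in a fit of the pair of stages alone 3 were called. Rec8 and Stk31 passed the filter only through the stage where they were high, and without them 6 were called. Without E5.5 embryo 2 also 3 were called. In the second step 8 were called lower and none higher, against 2.54% and 1.89% of all genes (4.43% in either direction). The count was 13 in a fit of the pair of stages alone, and 4 without E6.0 embryo 2, 5 without E5.5 embryo 3 and 5 without E6.0 embryo 3. The genes called in the first step were Stk31, Tex19.1, Smc1b, Hormad1, Sohlh2, Meioc, Rnf17 and Rec8, and those in the second were Dazl, Piwil2, Tdrd12, Slc25a31, Stag3, Hormad1, Smc1b and Meioc.

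Other genes of meiosis and of the piRNA pathway were listed apart from the 41. Of 31 other meiosis genes, 22 were tested between E5.0 and E6.0, 10 were lower and 2 higher, where 11.6% and 10.2% of all genes were. Gm4969, the gene of MEIOSIN, the partner of STRA8 in meiotic entry, fell from a mean of 156.9 CPM to 6.73 (log2 change -4.59 ± 0.48, SE, adjusted p 0.000439). Hsf2bp, which binds BRCA2, fell from 68.5 to 6.85 CPM (-3.34 ± 0.29), Zcwpw1, a histone reader at recombination sites, from 75.1 to 18.4 (-2.04 ± 0.21), Tex11, of crossover formation, from 16.96 to 2.33 (-2.88 ± 0.32) and Majin, which ties telomeres to the nuclear envelope, from 8.07 to 0.115 (-5.79 ± 0.87). Majin passed the filter on low counts only through E5.0, where it was high, so it could be called in no other direction, and without it 9 were lower. The others that fell were Mlh3, Terb2, 4930447C04Rik, Ythdc2 and Ccnb1ip1, and those that rose were Ankrd31 (0.555 to 5.34 CPM, 3.15 ± 0.69) and Trip13 (34.6 to 68.6 CPM, 0.97 ± 0.17). Trip13 removes HORMA-domain proteins from axes and also acts in mitosis. Of 14 other piRNA genes, 9 were tested and 3 fell: Morc1 from 41.9 to 0.534 CPM (-6.22 ± 0.63), Gtsf1 from 3.91 to 0.159 (-4.62 ± 1.22) and Gpat2 from 16.7 to 4.17 (-2.02 ± 0.48). Gtsf1 too passed the filter only through E5.0, and without it 2 were lower. None of the 14 rose. Of 21 repressors of germline genes, all tested, 4 rose and 5 fell, beside the same shares of all genes (10.2% and 11.6%). Dnmt3b, a de novo DNA methyltransferase, rose from 2784 to 5187 CPM (0.88 ± 0.08), and E2f6, Yaf2 and Atf7ip rose by 0.99 ± 0.21, 1.18 ± 0.26 and 0.59 ± 0.12. Dnmt3l, the cofactor of de novo methylation, fell from 348.7 to 17.6 CPM (-4.32 ± 0.45), and L3mbtl2, Uhrf1, Pcgf6 and Mga had changes of -1.04 ± 0.13, -0.63 ± 0.08, -0.58 ± 0.13 and -0.31 ± 0.10. Tet1, which oxidises methylated cytosine, fell by 0.78 ± 0.10, and the other 3 genes of demethylation did not pass the test. Adjusted p in edgeR was at most 0.0426 for each of these genes.

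In the first step alone, Mlh3 (-1.14 ± 0.22, SE), Majin (-2.53 ± 0.68) and Hsf2bp (-1.09 ± 0.26) of the other meiosis genes fell, and Ankrd31 (2.99 ± 0.69) and Trip13 (0.59 ± 0.17) rose. Here too Majin passed the filter only through E5.0, and without it 2 fell. Morc1 fell by 3.67 ± 0.52. Of the repressors, Dnmt3b rose (0.57 ± 0.08) and L3mbtl2 (-0.76 ± 0.12), Pcgf6 (-0.48 ± 0.13) and Uhrf1 (-0.33 ± 0.08) fell. In the second step Gm4969 (-3.33 ± 0.47), Hsf2bp (-2.25 ± 0.28), Tex11 (-2.02 ± 0.32) and Zcwpw1 (-1.53 ± 0.20) fell and no other meiosis gene rose. Morc1 fell by 2.55 ± 0.64, Dnmt3l by 3.37 ± 0.43 and Tet1 by 0.80 ± 0.10, while Dnmt3b (0.31 ± 0.08) and Yaf2 (1.06 ± 0.26) rose. Adjusted p was at most 0.0474 for each. Hsf2bp and Morc1 were thus called in both steps. Of the visceral endoderm markers 7 of 8 tested fell in the first step and 1, Hnf4a, in the second, as did 1 of 7 naive pluripotency markers in each, and their part was not tested. In the first step Ttr passed the filter only through E5.0, and without it 6 visceral endoderm markers fell. Of all genes 3.75% were called lower in the first step and 2.54% in the second.

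**Figure D4:**
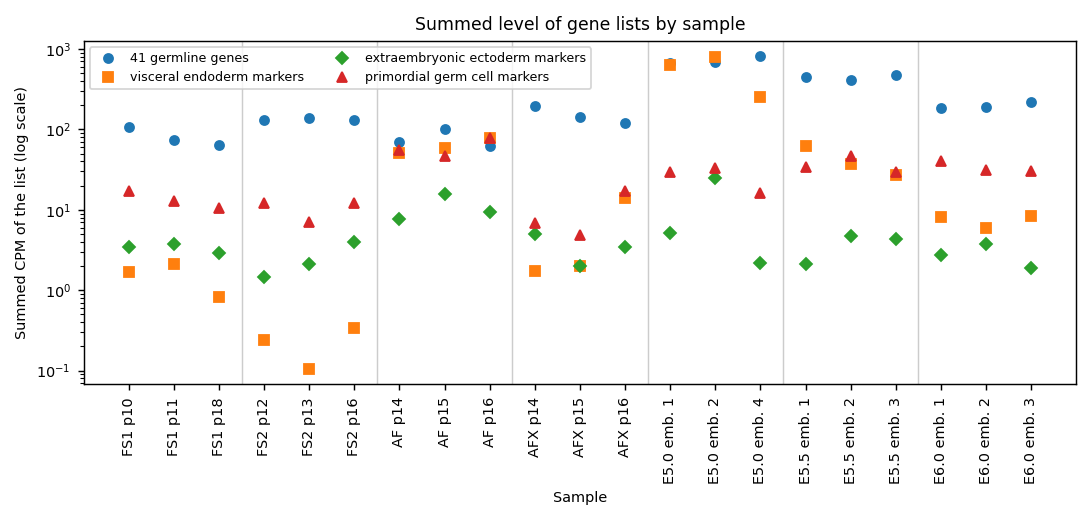
Summed level (CPM, log scale, vertical axis) of the 41 germline genes and of markers of visceral endoderm, extraembryonic ectoderm and primordial germ cells in each of the 21 samples (horizontal axis). The germline genes and the visceral endoderm markers both decline from E5.0 to E6.0, while the sum of the germ cell markers, which follows Kit, does not (16.2 to 32.8 CPM at E5.0 and 30.4 to 40.4 CPM at E6.0).

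Cultured cells as a whole were compared with epiblasts only by description, since Sycp1 in epiblasts prompted the choice. Of the 35 genes other than Sycp1 that passed the filter over 21 samples, 25 were past the threshold as lower and 5 as higher in culture. Of these 30, 17 passed the filter only through the side where they were high, Spo11 and Mei1 of those higher in culture among them, so they could be called in no other direction, and 13 were left without them. Of all 16614 genes 27.9% and 33.9% were (61.8% in all), and nothing is read from these counts. Markers of other cell types moved too: 7 of 9 tested for visceral endoderm were lower in culture, as were 3 of 5 for primordial germ cells (Prdm1, Dppa3 and Dnd1), while of 8 fibroblast markers 5 were higher and 2 lower and of 8 naive pluripotency markers 1 was higher and 4 lower. For Prdm1 the plain mean, 4.85 CPM in culture and 3.45 in epiblasts, and the fitted log2 change of -1.17 differ in sign. The part of these markers was not tested. Syce1 and Asz1 had no count in any of the 12 cultured samples, and Syce1 was at least 18.2-fold lower than in epiblasts, taking 3 counts per sample as the floor. Another 6 genes, Hormad1, Mael, Piwil4, Slc25a31, Sohlh2 and Stk31, never had more than 3 counts in a cultured sample. Hormad1 had 2 counts in all cultures together and 1075 in the epiblasts, a ratio of levels of 0.00108 (95% interval 0.00013 to 0.0039, counting error only). Ddx4 had 25 counts against 975, Piwil2 90 against 1956 and Mov10l1 10 against 533. The 5 genes higher in culture were Tdrd7 (6.56 to 13.2 CPM by culture mean, 1.28 to 3.86 by stage mean), Tdrd5 (3.10 to 17.99 and 3.39 to 5.02), Msh5 (3.70 to 5.77 and 1.44 to 1.82), Mei1 (0.419 to 1.47 and 0.0414 to 0.753) and Spo11 (0.339 to 0.751 and 0 to 0.440). Syce2, at 17.8 to 19.0 CPM by culture mean, was lower than in epiblasts but present in every culture.

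AFX cells were set beside AF cells, which share the E14 name and the passage numbers but differ in medium. This contrast holds the values that prompted the choice, so it is a description. Of the 41 genes 20 passed the filter, and 4 of them, with Sycp3 and Rnf17 among these, were past the threshold as higher and 1 as lower. Of all 16052 genes 4.30% and 4.42% were (8.73% in all), and nothing is read from these counts. Sycp3 was at 38.8, 12.6 and 10.7 CPM in AFX at passages 14, 15 and 16 and at 0.370, 0.176 and 0.278 CPM in AF. Rnf17 was at 21.9, 20.9 and 11.4 CPM in AFX and at 0.863, 0.352 and 1.02 in AF. The groups lay far apart for both genes, with log2 differences of 6.22 and 4.59. AFX passage 14 held the highest Sycp3 level, and without it the difference was 5.38. Sycp3 shares 660 of its 1264 exon bases with Chpt1 on the opposite strand, and whether counting used strand is not given in the sources used here, so reads of these genes may be mixed. Chpt1 was at 6.62 ± 2.32 CPM in AFX (SD, n = 3) and 5.18 ± 0.759 in AF, a log2 difference of 0.36 ± 0.26 (SE). Dmc1 was at 17.04, 10.999 and 13.9 CPM in AFX and at 0.987, 1.49 and 1.02 in AF, a log2 difference of 3.56, and Tex15 at 32.1, 34.1 and 20.9 against 8.88, 4.48 and 6.59, a difference of 2.13. Every AFX passage lay above every AF passage. Hormad2 was at 3.56, 3.87 and 4.41 CPM against 0.370, 0.791 and 0.0928, a difference of 3.18, or 4.11 without AF passage 15. It passed the filter only through AFX, so it could be called in no other direction, and without it 4 of the 20 were past the threshold. Tex19.1 was at 7.65, 5.00 and 5.90 CPM against 0.247, 0 and 1.11, a difference of 3.72, or 3.10 without AF passage 15 and 5.73 without AF passage 16. Tdrd5, a Tudor-domain protein of germ granules, went the other way, at 3.69, 2.62 and 2.99 CPM in AFX and 14.7, 22.8 and 16.5 in AF, a difference of -2.52. Hormad1, Meioc, Stk31, Syce1, Asz1 and Piwil4 had no count in AFX, and Ddx4 and Dazl had means of 0.1002 and 0.0277 CPM. The number called was 3 without AF passage 14 or 15 or AFX passage 15 or 16, and 7 in a fit of AFX and AF alone. Other cell types moved with the contrast: of 8 fibroblast markers tested 6 were lower in AFX and 1 higher. All 3 of visceral endoderm tested were lower, as were 1 of 2 of extraembryonic ectoderm, 3 of 6 of naive pluripotency and 2 of 3 of primordial germ cells (Tfap2c and Kit). The part of these markers was not tested. Sox17, Gata4 and Gata6 of visceral endoderm, Gata3 of extraembryonic ectoderm, Zfp42, Postn, Dcn, Prdm1 and Tfap2c passed the filter only through AF. They could be called in no direction but lower in AFX.

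FS cells were compared with AFX in the same descriptive way. Sycp3 was at 1.588, 0.118 and 0.407 CPM in FS line 1 and 2.89, 4.01 and 3.41 in line 2, all below the AFX passages, with a log2 difference from AFX of -3.31 over both lines, or -2.47 without AFX passage 14. Hormad2 and Rnf17 were lower than in AFX as well, with log2 differences of -2.95 and -2.81 (Hormad2 passed the filter on low counts only through AFX, so it could be called in no other direction), and Tdrd5 and Tdrd7 higher, with 1.29 and 0.99. These 5 were past the threshold (4 without Hormad2), with Sycp3 and Rnf17 among them, where 3.78% of all genes were as higher and 4.92% as lower (8.70% in all), and nothing is read from these counts. Without AFX passage 14 or 15, 3 were. Of the markers of other cell types, 3 of 8 fibroblast, 1 of 3 visceral endoderm and 1 of 6 naive pluripotency markers tested were lower in FS, and of 3 primordial germ cell markers Kit was higher and Prdm1 lower. Their part was not tested.

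FS cells were next set against AF cells. This contrast did not prompt the choice of genes, but it shares its AF samples with the one that did. Of the 41 genes 20 were tested, 2 were higher and 2 lower in FS (edgeR, adjusted p under 0.05), where 8.86% and 10.6% of all 16052 genes were (19.5% in all), so the 4 of 20 genes called were close to the share of all genes. Mei4 and Piwil2 passed the filter only through the group where they were high, so they could be called in no other direction, and without them 2 were called. Tdrd5 was at 6.55, 10.5 and 4.72 CPM in FS line 1, 8.92, 6.22 and 9.27 in line 2 and 14.7, 22.8 and 16.5 in AF. All FS samples lay below all AF samples, and the log2 change of -1.24 ± 0.24 (SE, adjusted p 0.00222) was called under every alternative run. Mei4 was lower in FS too, at 1.39, 0.354 and 0.407 CPM in line 1, 0.562, 0.527 and 0.398 in line 2 and 2.34, 2.37 and 1.95 in AF, a change of -1.88 ± 0.59 (adjusted p 0.0370). This call was lost on leaving out any sample but FS line 1 passage 10, with changes of -1.79 and -1.79 without line 1 passages 11 and 18, -1.86, -1.85 and -1.77 without line 2 passages 12, 13 and 16, and -1.85, -1.83 and -1.98 without AF passages 14, 15 and 16. Tex19.1 was at 2.28, 1.06 and 0.733 CPM in line 1, 4.58, 7.17 and 6.20 in line 2 and 0.247, 0 and 1.11 in AF, with 1 AF passage inside the range of FS. Its change of 2.96 ± 0.91 (adjusted p 0.0357) was not called with no filter (2.96), in a fit of FS and AF alone (2.96), or without line 2 passage 12 (2.89), 13 (2.67) or 16 (2.73) or AF passage 14 (2.71) or 15 (2.35), and was 4.97 without AF passage 16. Piwil2 ranged over 0.489 to 1.42 CPM in the FS samples and over 0.0928 to 0.493 CPM in AF, a change of 1.94 ± 0.62 (adjusted p 0.0394), not called with no filter (1.94), in a fit of FS and AF alone (1.94), or without AF passage 15 (1.75) or 16 (1.53), and 2.71 without AF passage 14. It did not pass the filter, and was not tested, without FS line 1 passage 10 or 11 or line 2 passage 16, or with a mean of at least 1 CPM asked for. The other 16 genes tested did not pass, among them Stag3 (1.43) and Tdrd7 (0.76). The count of 4 was 2 with no filter and in a fit of FS and AF alone, 2 without line 2 passage 12 or 13 or AF passage 14, and 1 without line 2 passage 16. Markers of other cell types were higher in AF: 7 of 8 fibroblast markers tested, all 3 of visceral endoderm, 1 of 2 of extraembryonic ectoderm, all 6 of naive pluripotency and all 3 of primordial germ cells (Prdm1, Tfap2c and Kit), and their part was not tested. Of these markers 9 passed the filter only through AF. Among the other meiosis genes, Ccdc36 and Rad21l were higher in FS and Mnd1 and Ccnb1ip1 lower. Ccdc36 (IHO1, which sets up meiotic breaks) had 253 counts over the FS samples and 1 over AF, a ratio of levels of 109.0 (95% interval 19.4 to 4320, counting error only), and 240 of the 253 came from FS line 2. Rad21l, another meiotic kleisin, had 169 and 1, a ratio of 72.7 (12.9 to 2890), with 144 of the 169 from line 2. Tdrkh of the piRNA list was higher and Exd1 lower. Of the repressors, Dnmt3b (0.97 ± 0.20), Setdb1 (0.56 ± 0.13) and Cbx3 (0.35 ± 0.11) were higher in FS and E2f6 (-0.41 ± 0.14) and Yaf2 (-0.65 ± 0.14) lower.

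**Figure D5:**
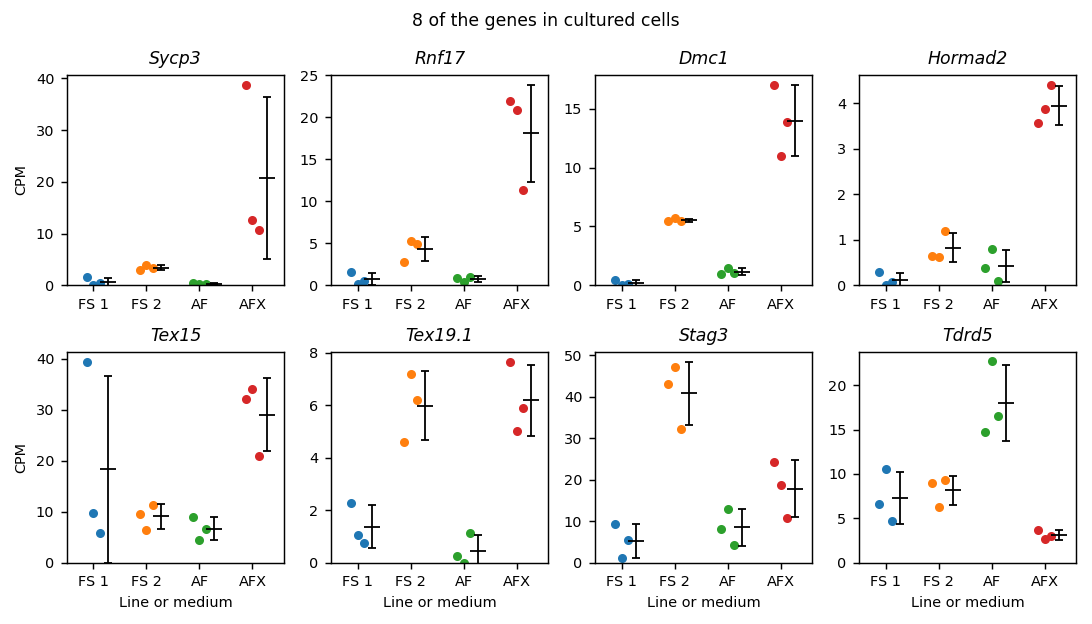
Level (CPM, vertical axes, each from 0) of 8 of the genes in the 3 passages of FS line 1, FS line 2, AF and AFX (points), with the mean and SD beside them (bars are cut at 0). Sycp3, Rnf17 and Hormad2 are highest in all 3 AFX passages, Stag3 is highest in FS line 2, and Tdrd5 is highest in AF.

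The 2 FS lines were kept in the same medium. Of the 41 genes 4 were higher in line 2 (Dmc1, Stag3, Rec8 and Rnf17) and none lower (edgeR, adjusted p under 0.05), with 20 tested, where 2.65% and 1.20% of all 16052 genes were. Without Rec8, which passed the filter only through line 2, 3 were called. Each line is 1 line, so this is a difference between these lines and their passages. Dmc1 was at 0.496, 0 and 0.0814 CPM at passages 10, 11 and 18 of line 1 and at 5.46, 5.69 and 5.46 CPM at passages 12, 13 and 16 of line 2. The 3 passages of each line lay close together, and the log2 change was 4.74 ± 0.53 (SE, adjusted p 6.22e-05), called under every alternative run and 6.54 without line 1 passage 10. Stag3 was at 9.33, 1.06 and 5.46 CPM in line 1 and 43.1, 47.1 and 32.3 in line 2, a change of 2.91 ± 0.57 (adjusted p 0.0173). It was not called without line 1 passage 18 (2.92) or line 2 passage 13 (2.79), and was 3.54 without line 1 passage 10. Rec8 had 2 counts in line 1 and 69 in line 2, at 1.69, 1.79 and 1.76 CPM. It could be called in no other direction. The ratio of levels was 26.9 (95% interval 7.17 to 227.0, counting error only), and the fitted change of 4.51 ± 0.97 (adjusted p 0.0166) was not called without line 1 passage 11 (4.11) or 18 (3.89) or line 2 passage 12 (4.53), 13 (4.49) or 16 (4.49), and was 7.31 without line 1 passage 10. Rnf17 was at 1.588, 0.118 and 0.570 CPM in line 1 and 2.73, 5.27 and 4.95 in line 2, a change of 2.45 ± 0.55 (adjusted p 0.0235). It was not called without line 1 passage 11 (2.02) or 18 (2.24) or line 2 passage 13 (2.29) or 16 (2.32), and was 3.46 without line 1 passage 10. Line 2 lay above line 1 with no overlap for 10 of the 20 genes tested (50%) and below it for none. Of all genes tested 14.9% lay above and 12.4% below. This is a description, since genes can pass the filter through the line where they are high. Beside the 4 called, the genes above were Sycp3, Hormad2, Tex19.1, Tdrd12, Mei1 and Tdrd7. These 6 did not pass the test, with adjusted p from 0.0614 (Tex19.1, 2.12 ± 0.59) to 0.514 (Tdrd7, 0.42 ± 0.29). Among all genes 3.85% were called in either direction. The count of 4 was 10 with no filter on low counts and 7 in a fit of the 2 lines alone. It was 2 without line 1 passage 11 or line 2 passage 16, and 1 without line 1 passage 18 or line 2 passage 13. Of the other meiosis genes 3 were higher in line 2 and none lower: 4930447C04Rik (SIX6OS1, of the central element) at 7.51 CPM against 0.199 (5.17 ± 0.48, adjusted p 9.62e-06), Ccdc36 at 6.08 against 0.400 (3.82 ± 0.64, adjusted p 0.00302) and Hfm1, a helicase of crossover formation, at 3.29 against 0.612 (2.38 ± 0.54, adjusted p 0.0237). None of the 14 other piRNA genes was called. Of the repressors, Uhrf1, which brings DNMT1 to newly copied DNA, was lower in line 2 at 266.2 against 414.9 CPM (-0.66 ± 0.15, adjusted p 0.0218), and Dnmt3l was higher at 2.68 against 0.272 (3.29 ± 0.83, adjusted p 0.0426). No marker of visceral endoderm, extraembryonic ectoderm, naive pluripotency or primordial germ cells was called between the lines, and of the fibroblast markers Postn was (1 count in line 2 and 16 in line 1).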

How the data were processed

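RNA from 12 cultured samples (1000 cells each) and 9 single epiblasts was isolated with the PicoPure kit, per the labels' protocols. The deposited table holds whole-number read counts per Ensembl gene for 33861 genes and 21 samples. The submitters' processing notes name Trim Galore, TopHat2 2.1.0, featureCounts 1.5.0 and mm10. The annotation and the strand setting are not given in the sources used here.

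The 41 genes and all other lists were chosen with earlier results of these data known. Contrasts were fitted on all genes with edgeR 4.0.16 (R 4.3.3): TMM, filterByExpr, robust quasi-likelihood F-test, Benjamini-Hochberg adjusted p under 0.05 as a call. Cultured samples and epiblasts were fitted separately, except where they were compared. SE is the size of the log2 change over the root of F. CPM was computed from the counts with TMM over all 21 samples. In every such test passages or embryos are the replicates, and p-values measure the spread between them. The rule was to name singly the genes with a group mean of at least 1 CPM or a call, and genes of other lists where called in a comparison with a test. Marker lists of cell types are given mainly by sums and counts. Values in each sample are printed for those the comparisons turn on, and means or ranges for the rest.

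No pair of samples in a group was a repeat of the same library (chi-square per degree of freedom 5.19 to 32.2 over 21 pairs). On simulated counts the fit recovered 34% of 2-fold and 69% of 4-fold changes for E6.0 against E5.0, 50% and 79% for FS against AF, and 51% and 80% between the FS lines, with 6 of 109, 5 of 134 and 4 of 135 calls false. Gene positions came from GENCODE M21 (GRCm38) and promoters from RefSeq (GRCm38.p6), both of the mm10 build. Alternatives were DESeq2 1.42.0 size factors and its Wald test, other filters, no ribosomal RNA loci, the compared groups alone, a replicate block and each sample left out. Figures were drawn with matplotlib 3.10.9. 1 gene of the other lists is not reported here.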

Additional observations from a re-analysis of the deposited data

Results flagged for a closer look

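Tex15 in FS line 1 at passage 10 stood apart from the other FS samples. It was at 39.4 CPM, against 11.3 CPM in the next highest of the 6 FS samples and a median of 9.64 CPM, so that the gap to the nearest sample was 0.835 of the whole range. Of 13 genes examined in this way 1 was marked, and chance marks about 1 in 20 groups. No FS call named above rests on Tex15.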

How the results depend on the processing

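Alternatives were run for the counts and for the genes called (with Dmc1 and Tex15 in AFX against AF), and none of these genes changed direction. Genes that passed no test were not rerun. From E5.0 to E6.0, 11 of the 17 genes called kept their call under every alternative, as did 1 of 8 from E5.0 to E5.5, 4 of 8 from E5.5 to E6.0, 1 of 4 in FS against AF and 1 of 4 between the FS lines. With no filter on low counts, 2 genes were called in FS against AF (4 in the fit reported), 10 between the FS lines (4) and 13 from E5.5 to E6.0 (8). With the compared groups fitted alone, the counts were 2 in FS against AF, 7 between the lines, 3 from E5.0 to E5.5 (8) and 13 from E5.5 to E6.0. Leaving out 1 sample gave 1 to 4 in FS against AF, 3 to 6 in FS against AFX (5), 3 to 4 in AFX against AF (5), 1 to 5 between the lines, 3 to 11 from E5.0 to E5.5, 13 to 17 from E5.0 to E6.0 (17) and 4 to 7 from E5.5 to E6.0. With DESeq2's Wald test the counts were 5 in FS against AF, 6 between the lines, 11, 20 and 12 from E5.0 to E5.5, E5.0 to E6.0 and E5.5 to E6.0. At 0.5 CPM and 5 counts the mean number of genes detected was 17.33 in FS, 16 in AF, 18.33 in AFX, 33 at E5.0, 35 at E5.5 and 33 at E6.0. Of genes tested in culture 11.6% held CACGTG in a promoter window, 40.7% held TCCCGC and 71.1% had a CpG ratio of at least 0.6.

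The deviations of samples with the same number in different groups were at most weakly correlated. Correlations were -0.138, -0.105 and 0.224 for AF and AFX, and -0.0819 and 0.053 for E5.0 and E5.5. They were 0.0493 and -0.0429 for E5.0 and E6.0, and 0.128, -0.0874 and 0.098 for E5.5 and E6.0. Embryos are separate, so the numbers are not pairs. With the replicate block on the compared groups alone, 7 genes were called in AFX against AF, 2 from E5.0 to E5.5, 13 from E5.0 to E6.0 and 13 from E5.5 to E6.0. Depth limits genes of a few counts, such as Tex101 and Rec8.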
